A study of Mus musculus with 16 samples.

Results

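The T-box family of transcription factors was followed through the Jarid2 and Jarid2-K116me2 peak lists of mouse ESC and through the H3K27me3 peak lists of ESC and embryoid bodies (EBs). 10 genes were taken, namely T (brachyury), Eomes, Tbx1, Tbx2, Tbx3, Tbx4, Tbx5, Tbx15, Tbx18 and Tbx20, and a listed peak was assigned to a gene when it overlapped the gene or lay within 5 kb of it in the GENCODE annotation of NCBIM37 (mm9). By this rule the 10 genes held 22 peaks of total Jarid2 (4992 in the list) and 24 of K116me2 (4502 in the list), and none of the 10 was without a peak of either antibody. The peaks were assigned to these genes by position alone, without use of their scores and widths. The genes themselves were chosen with earlier results of these data known, so that values over the 10 can reflect this choice. Of the 7 further T-box genes, given below, 5 had no Jarid2 peak. The family below means the 10 genes.

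T-box factors bind DNA through a shared domain, the T-box, and regulate the formation of the germ layers, heart, limbs and pharynx. Most of them are silent in ESC and are switched on in defined lineages of the embryo. In ESC, genes of this kind are typical targets of the Polycomb complex PRC2, which methylates histone H3 at lysine 27 (H3K27me3) and of which Jarid2 is a DNA-binding partner.

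The series holds 16 samples, of which 14 came with peak lists. The others were an input of E14 ESC and an input of Jarid2-/- ESC. No input of EBs or of the rescued lines is in the series, and its bearing on the lengths called was not tested. E14 ESC, a wild-type mouse line grown in serum with LIF, gave 1 ChIP sample for total Jarid2 and 1 for Jarid2 carrying dimethylated lysine K116 (K116me2), so that none of these values has a replicate error. H3K27me3 was measured in 3 ESC lines that all derive from Jarid2-/- cells: the Jarid2-/- cells themselves (KO), the same cells rescued by a bacterial artificial chromosome (BAC) with wild-type Jarid2 (WT), and the same cells rescued by a BAC with Jarid2 in which the lysine is replaced by alanine (K116A). Each line was sampled 2 times as ESC in serum with LIF and 2 times as EBs made by hanging drops and kept for 8 days without LIF, giving 12 libraries. WT here means a rescued line and not E14. The study describes the H3K27me3 replicates as independent biological samples. Whether a rescued line came from a single clone was not given in the sources used here. An EB is a mixture of cell types, so that a mark present in fewer cells and a weaker mark per cell cannot be told apart.

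The H3K27me3 libraries differed widely in how much they called, and this touches each covered length given here. The total length called was 2.31 Mb in ESC WT replicate 1, by far the lowest, and between 8.03 and 29.24 Mb in the other 5 ESC libraries. In EBs it was 19.65 and 22.52 Mb in WT, 23.25 and 37.17 Mb in K116A, and 33.61 and 55.03 Mb in KO. The ESC marker Klf4 had no H3K27me3 within 5 kb in any of the 6 ESC libraries and between 1.96 and 9.17 kb in the 6 EB libraries. Nanog and Zfp42 had none in any library, Pou5f1 had 1.397 kb in EB KO replicate 2 alone, and Sox2 had 0.605 and 3.73 kb in the EB KO libraries alone. Of the 5 pluripotency genes Pou5f1, Nanog, Sox2, Zfp42 and Klf4, 0 had a Jarid2 or K116me2 peak within 5 kb. The study states the read numbers of the libraries. By these, ESC WT replicate 1 had the most reads of the ESC libraries, and both EB WT libraries had the fewest of all H3K27me3 libraries. The study calls the replicate 2 samples those of higher quality. The lists do not give the reads in each peak, so the precision of a single value could not be computed.

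Sequences just upstream of the annotated starts are shown first for 4 genes that span the range of CpG content, each of the stretches lying under a Jarid2 peak. Each line gives 120 bases of NCBIM37 that end at the base before the outermost annotated start, 5′ to 3′ on the strand of the gene, with CpG dinucleotides in capitals. The stretch of Tbx2 (chr11:85645933-85646052, plus strand) holds 14 CpG, that of Tbx1 (chr16:18588114-18588233, minus strand) 13, that of Tbx3 (chr5:120120558-120120677, plus strand) 8 and that of Tbx5 (chr5:120284552-120284671, plus strand) 0.
Tbx2: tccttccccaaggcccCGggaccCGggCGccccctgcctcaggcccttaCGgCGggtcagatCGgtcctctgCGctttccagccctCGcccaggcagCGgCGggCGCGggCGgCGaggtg
Tbx1: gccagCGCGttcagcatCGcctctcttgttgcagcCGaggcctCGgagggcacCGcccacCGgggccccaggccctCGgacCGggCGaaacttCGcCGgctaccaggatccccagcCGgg
Tbx3: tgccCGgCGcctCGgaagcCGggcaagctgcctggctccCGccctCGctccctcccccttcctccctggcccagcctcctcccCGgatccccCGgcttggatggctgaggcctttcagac
Tbx5: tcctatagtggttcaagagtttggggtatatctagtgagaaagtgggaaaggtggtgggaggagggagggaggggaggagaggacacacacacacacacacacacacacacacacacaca

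The stretch of Tbx5 ends in a run of CA repeats, whereas those of Tbx1, Tbx2 and Tbx3 carry CpG along most of their length. In the remaining 6 genes the same window held between 4 CpG (Eomes) and 11 CpG (Tbx20).

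The core motif bound by T-box proteins, AGGTGTGA, was searched on both strands of the regions formed by merging overlapping peaks of both lists. It was present in 0 of the 23 T-box regions within the central 1000 bp, where 3.22% of all 5001 regions held it. Over whole regions it was found in 2 of 23, with 2 matches in the region at the start of Eomes and 1 in the region at the start of Tbx15, and over all 5001 whole regions, which have a smaller median width (1911 against 3030 bp), in 9.38%. These matches are shown with 30 bases each because they are the places where a T-box gene region carries the family's own motif (in capitals); they lie at chr9:118384411-118384440 (minus strand), chr9:118385580-118385609 (minus strand) and chr3:99043586-99043615 (plus strand).
Eomes, first match: aggccaagtctAGGTGTGAgcatattaaag
Eomes, next match: gagggagatgtAGGTGTGAgactgaatctc
Tbx15: tttctcacccgAGGTGTGAtgagaacagag

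A match of letters is a description and does not show binding.

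Jarid2 was listed at the T-box genes with high scores and wide peaks. The score, written by the peak caller, is minus 10 times the log10 of the p-value of a peak, and it piles up at 3100, so that stronger peaks cannot be ranked. 8 of the 10 genes had a Jarid2 peak at 3100 or more, and the same number had a K116me2 peak at this score. Among all 22350 protein-coding genes, 18.1% had a Jarid2 peak and 16.0% a K116me2 peak within 5 kb, and 3.61% and 4.25% had one at 3100 or more. The exceptions were Tbx5, with highest scores of 2376.56 for Jarid2 and 2480.19 for K116me2, and Tbx3, with 584.78 and 347.73. The median score was 1848.74 over the 22 Jarid2 peaks of the family and 503.04 over the whole list, and for K116me2 it was 1886.34 over the 24 peaks and 706.9 over the whole list.

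Peak widths followed the same order. The median width was 3873.5 bp for the family's Jarid2 peaks and 1877 bp for all Jarid2 peaks. For K116me2 it was 3026 bp and 1684 bp. 11 of the 22 Jarid2 peaks and 11 of the 24 K116me2 peaks covered an annotated start. By the position of their midpoint, 12 Jarid2 peaks lay in introns, 7 upstream, 2 in coding exons and 1 downstream. The K116me2 midpoints lay in introns for 11 peaks, upstream for 8, in coding exons for 2, downstream for 2 and in an untranslated exon for 1.

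**Figure D1:**
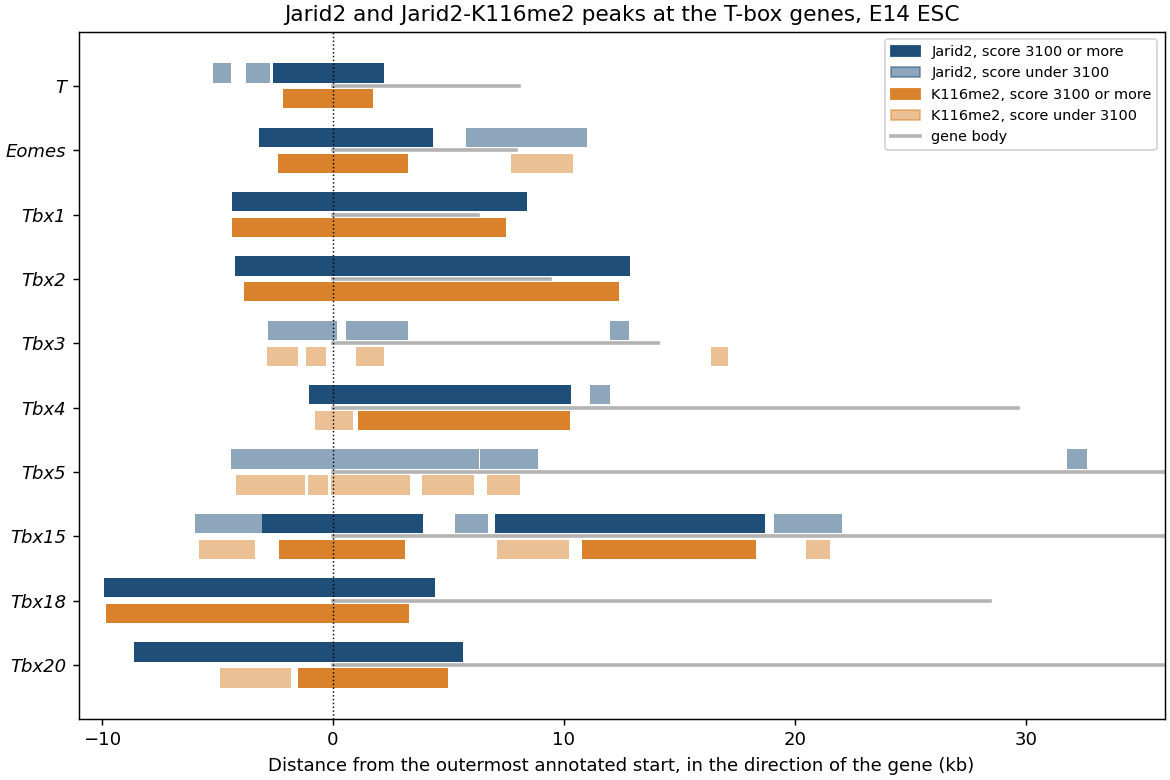
Peaks of Jarid2 (blue, upper row of each gene) and Jarid2-K116me2 (orange, lower row) drawn by distance in kb from the outermost annotated start, in the direction of the gene, with scores under 3100 in pale colour and the gene body as a grey line cut at 36 kb. Dark bars cover or adjoin the start in 8 genes, while Tbx3 and Tbx5 have pale bars only.

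T and Eomes, which direct the formation of mesoderm and endoderm at gastrulation, had their strongest peak over the start. T (chr17:8627288-8635361, plus strand) had a Jarid2 peak of 4771 bp at 3100 and, upstream of it, 2 narrow Jarid2 peaks with scores of 93.62 and 125.62 that had no K116me2 counterpart. The K116me2 peak of T was 3880 bp wide at 3100. Eomes (chr9:118387330-118395250, plus strand) had a Jarid2 peak of 7550 bp at 3100 over its start and another of 5218 bp with a score of 2850.39 at its 3′ end. The K116me2 peaks of Eomes were narrower at both places, with 5622 bp at 3100 and 2666 bp at a score of 1903.49.

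Among the genes of pharynx and heart, Tbx1 (chr16:18581806-18588113, minus strand), needed for the pharyngeal arches and the outflow tract, lay whole within a single Jarid2 peak of 12740 bp and a K116me2 peak of 11857 bp, both at 3100. Tbx2 (chr11:85646053-85655450, plus strand), a repressor active in the atrioventricular canal, was likewise covered from end to end, by a Jarid2 peak of 17090 bp and a K116me2 peak of 16204 bp. These were the widest peaks of the family. Tbx20 (chr9:24527648-24578746, minus strand), a factor of the developing heart, had a Jarid2 peak of 14235 bp, and Tbx18 (chr9:87597635-87626095, minus strand), a factor of the sinus venosus and the somites, had a Jarid2 peak of 14325 bp. Both peaks scored 3100 and reached further upstream of the start than into the gene.

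Tbx5 (chr5:120284672-120335227, plus strand), needed for the heart and the forelimb, had a Jarid2 peak of 10713 bp across its start, whereas K116me2 was listed there as 4 separate peaks. A gap between K116me2 peaks upstream of the start reached into the first part of the stretch printed for Tbx5, and the next peak began at 120284610, ahead of the CA repeats, and covered the start. Tbx4 (chr11:85699924-85729599, plus strand), its counterpart in the hindlimb, had a Jarid2 peak of 11334 bp at 3100 across its start and 2 K116me2 peaks under it, of 1624 bp with a score of 720.32 and 9178 bp at 3100. Tbx15 (chr3:99044304-99158182, plus strand), a factor of limb skeleton and skin patterning, had 5 Jarid2 and 5 K116me2 peaks, 2 of each at 3100.

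Tbx3 (chr5:120120678-120134733, plus strand) acts in heart, limb and mammary gland and, unlike most of the family, is also transcribed in ESC as part of the pluripotency network. Its 3 Jarid2 peaks scored 584.78, 518.24 and 77.68, and its 4 K116me2 peaks 347.73, 306.58, 157.59 and 112.01. Each of these scores was below those of the strongest peaks of the other 9 genes. The K116me2 peak with 112.01, downstream of Tbx3, was the only K116me2 peak of the family without an overlapping Jarid2 peak.

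**Figure D2:**
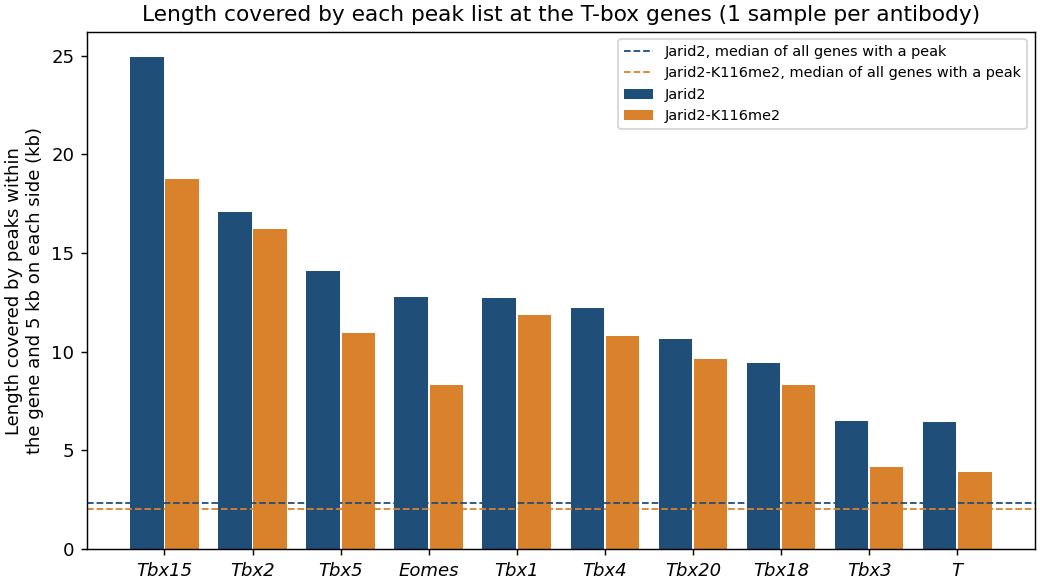
Length covered by listed peaks within each T-box gene and 5 kb on each side (kb, bars from 0), for Jarid2 (blue) and Jarid2-K116me2 (orange), 1 sample per antibody. Dashed lines are the medians of all protein-coding genes with a peak, 2.32 kb and 2.035 kb, and the bars of all 10 genes stand above them, from 24.95 kb of Jarid2 at Tbx15 to 6.455 kb at T.

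The length covered by Jarid2 within the gene and 5 kb on each side placed all 10 genes above the upper quartile of the 4052 genes with a Jarid2 peak, which was 3.78 kb. The median over the family was 12.48 kb, against 2.32 kb over all genes with a peak. Tbx15 led with 24.95 kb, rank 16 of 22350 genes, followed by Tbx2 with 17.09 kb (rank 51) and Tbx5 with 14.10 kb (rank 98). Eomes with 12.77 kb, Tbx1 with 12.74 kb and Tbx4 with 12.23 kb were close to each other, and without replicates their order cannot be judged. Tbx20 had 10.65 kb, Tbx18 9.41 kb, Tbx3 6.48 kb and T 6.455 kb. Long genes offer more room for peaks, and Tbx15 with 113879 bp is the longest of the family. Measured against the window, Tbx2 was covered to 88.1%, Tbx1 to 78.12% and Eomes to 71.25%, whereas Tbx15 was covered to 20.14%. The 5 genes nearest to Tbx15 in the covered kb of both antibodies (Euclidean distance over 2 values per gene) were Lhx2, Pcdhgc5, Gata4, Gata3 and Nr2f2.

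K116me2 covered less than Jarid2 at each of the 10 genes, as it did over most of the list. The peaks of both antibodies merged into 23 regions, of which 16 were common, 6 had Jarid2 only and 1 had K116me2 only. In the 16 common regions the length under K116me2 divided by that under Jarid2 had a median of 0.817, and it was below 1 in 16 of 16. Over all 3896 common regions of the lists the median was 0.823, and 92.4% were below 1. The ratio varied within single genes: at Tbx15 it ran from 0.366 in the region furthest into the gene to 0.905. The 6 regions with Jarid2 only scored between 64.51 and 219.71, where the lowest listed Jarid2 score was 62.07. The lowest listed K116me2 score was higher, at 91.86. By the study's read numbers the K116me2 sample had fewer reads than the Jarid2 sample. The study holds that peaks of 1 antibody alone most likely reflect variable depth and the estimate of background. An effect of depth on the K116me2 lengths was not tested here. K116me2 was split into several peaks in 5 of the 16 common regions, at Tbx3, Tbx4, Tbx5, Tbx15 and Tbx20, and in 9.24% of all common regions.

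At their centres the family's regions differed from the list in the value of base composition. In the central 1000 bp the observed over expected CpG ratio had a median of 0.484 over the 23 regions and of 0.657 over all 5001, and the GC content was 53.1% and 60.1%. Within the family the ratio ran from 0.092, in a Jarid2-only region inside Tbx15, to 0.84 in the region over the start of Eomes, whose midpoint was at 584 bp. The centre of a wide region can lie away from the start, as at Tbx20, where the midpoint was at -1472 bp and the ratio was 0.164. In 1 kb around the outermost annotated starts the ratio was 0.65 (T), 0.62 (Eomes), 0.62 (Tbx1), 0.76 (Tbx2) and 0.82 (Tbx3). It was 0.51 (Tbx4), 0.12 (Tbx5), 0.36 (Tbx15), 0.75 (Tbx18) and 0.63 (Tbx20) at the others. The quartiles over the centres of all regions were 0.519 and 0.781. A window at a start differs from one at a region centre, and the ratio around the starts of other genes was not computed. Whether these starts stand apart therefore cannot be said. These values are descriptions, given without a test.

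Of the 7 further T-box genes, 2 had peaks. Tbr1, a factor of cortical neurons, had Jarid2 and K116me2 peaks with highest scores of 3106.09 and 3100, and Tbx21, the T-bet of T lymphocytes, had 1609.72 and 2026.54. Tbx6, Tbx10, Tbx19, Tbx22 and Mga had none. Jarid2 covered 10.849 kb at Tbr1 and 2.824 kb at Tbx21, the latter below the upper quartile of 3.78 kb over all genes with a peak. Among 13 known partners and targets of T-box factors 10 had a peak of each antibody, including the heart factors Nkx2-5, Gata4 and Isl1, and Msgn1, Nppa and Gja5 had none. The family has pairs of neighbours on the chromosome. The peaks over Tbx2 and Tbx4 reached into the 44.5 kb between the genes from both sides, and 0 peaks lay there more than 5 kb from both genes. The 149.9 kb between Tbx3 and Tbx5 held 4 Jarid2 and 3 K116me2 peaks at more than 5 kb from both, the highest Jarid2 score being 3100.

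H3K27me3 overlapped 12 of the family's 23 regions in more than 6 of the 12 libraries. The share of all regions with this was not computed, so it cannot be said whether this count is high. 21 of the 23 regions had a broad H3K27me3 peak in at least 1 of the 12 libraries, where 86.2% of all 5001 regions did, and 5 had one in all 12 libraries, where 12.9% did. The 5 lay at the starts of Eomes, Tbx1, Tbx2, Tbx18 and Tbx20. The 2 regions without H3K27me3 were the narrow Jarid2-only peaks inside Tbx4 and Tbx5. At Tbx3, H3K27me3 overlapped the region at the start in 2 of 6 ESC libraries and 4 of 6 EB libraries.

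**Figure D3:**
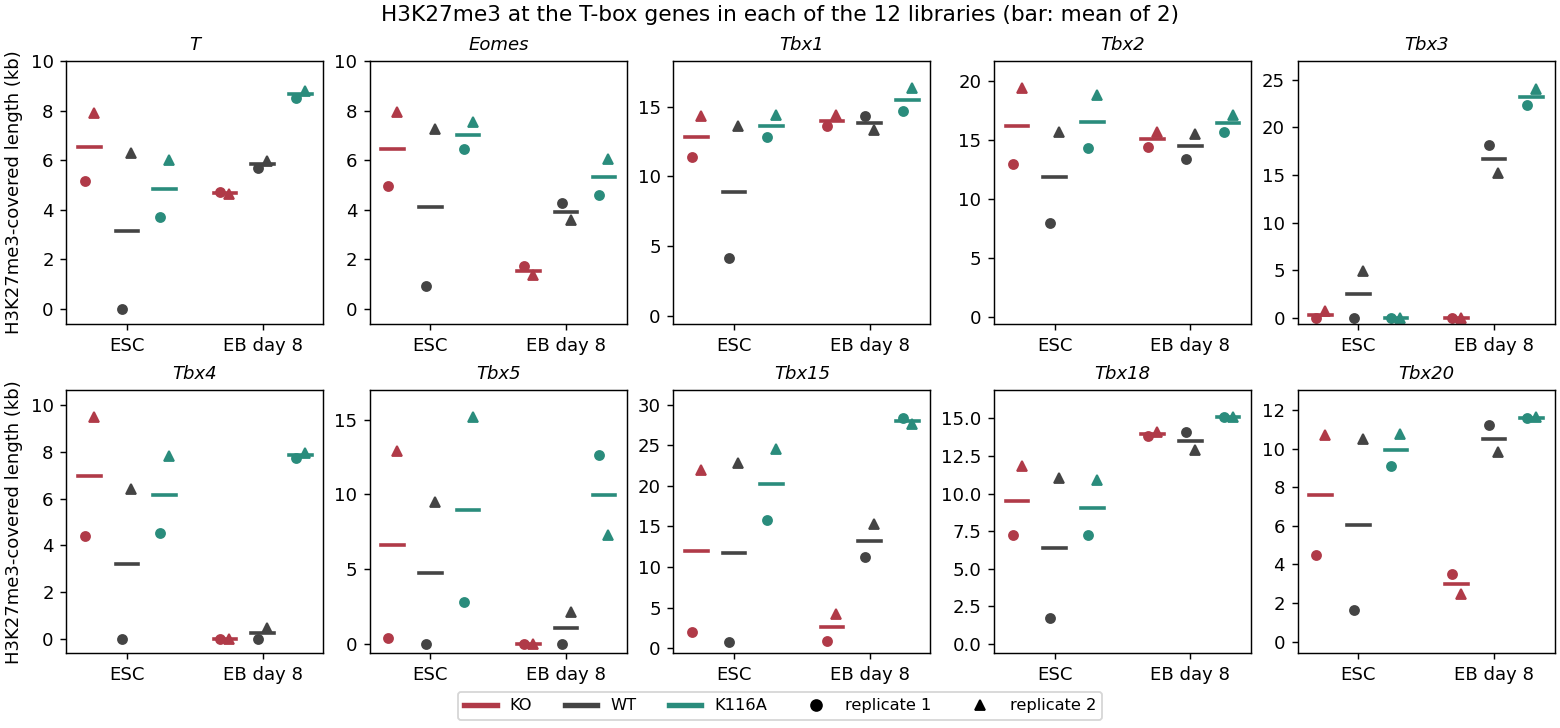
Length covered by H3K27me3 broad peaks within each T-box gene and 5 kb on each side (kb) in the 12 libraries, KO in red, WT in grey and K116A in green, replicate 1 as circles and replicate 2 as triangles, with a bar at the mean of 2. In EBs both K116A libraries exceed both WT libraries for every gene shown, and Tbx3 is at most 4.99 kb in ESC, between 15.3 and 24.1 kb in EBs of WT and K116A, and at 0 in both EB KO libraries.

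The next question was how H3K27me3 at the T-box genes differed between ESC and EBs. Tbx3 was nearly free of it in ESC. It had 0 and 0.764 kb in KO, 0 and 4.99 kb in WT, and 0 and 0.045 kb in K116A. In EBs it had 0 kb in both KO libraries, 18.2 and 15.3 kb in WT, and 22.3 and 24.1 kb in K116A. The ESC and EB libraries of WT and of K116A did not overlap, whereas those of KO were all at or near 0. The share of all genes with such a separation was not computed.

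At Tbx18 the covered length was higher in all 6 EB libraries than in any ESC library. Its ESC libraries ran from 1.70 to 11.9 kb with a median of 9.06 kb, and its EB libraries from 12.9 to 15.1 kb with a median of 14.1 kb, without overlap. How many of all genes show this was not computed, so it is not known to be rare. Tbx1 and Tbx2 were covered in all 12 libraries, from 4.12 to 16.3 kb and from 7.98 to 19.4 kb, and their stages overlapped.

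Eomes, Tbx4 and Tbx5 had lower mean covered lengths in EBs than in ESC, by -2.25, -2.75 and -3.11 kb. Eomes had a median of 6.86 kb in ESC and 3.93 kb in EBs, with ranges of 0.929 to 7.94 kb and 1.38 to 6.04 kb. Tbx4 had a median of 5.47 kb in ESC and 0.2415 kb in EBs, and its EB libraries split by line, with 0 and 0 kb in KO, 0 and 0.483 kb in WT, and 7.75 and 7.95 kb in K116A. Tbx5 had 0.378 and 12.9 kb in KO, 0 and 9.48 kb in WT, and 2.815 and 15.1 kb in K116A as ESC. As EBs it had 0 and 0 kb in KO, 0 and 2.12 kb in WT, and 12.7 and 7.28 kb in K116A. Thus in EBs the hindlimb and forelimb factors Tbx4 and Tbx5 carried several kb of listed H3K27me3 in the K116A line and little or none in the other lines. The highest scores in the K116A libraries were 44.24 and 59.96 at Tbx4 and 52.37 and 44.95 at Tbx5. The lowest listed scores there were 32.54 and 29.99. With peaks of a score of at least 50 only, K116A was not above WT in both libraries at either gene.

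None of these stage differences passed the test. An exact two-sided permutation of the stage labels within each line, over 216 arrangements, allows no p below 0.00926, and after Benjamini-Hochberg adjustment over the 9793 protein-coding genes with H3K27me3 in any library 0 genes were called (0.0%), the smallest adjusted p being 0.0919. At an unadjusted exact p under 0.05 there were 2054 genes, 1928 of them longer in EBs, and 1 of the 10 T-box genes. This was Tbx18, with a difference of 5.84 kb, an exact p of 0.00926 and an adjusted p of 0.0919. Both p-values are the lowest that any gene reached. How many genes share them was not counted, so Tbx18 is not shown to stand out. For Tbx3 the difference was 12.34 kb with an exact p of 0.0556. The median difference was 0.475 kb over the family and 0.52 kb over all genes, and 6 of the 10 were longer in EBs. As a share of the total length called in each library, 1 of the 10 was higher in EBs and 9 were lower, so the direction of most stage differences depends on this scaling.

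A linear model with the moderated test of limma, fitted over the 9793 genes and the 6 groups, was added after the permutation test was seen to make no call. Covered length is 0 in many libraries, for which this model is an approximation. By limma 18.5% of genes were longer in EBs at an adjusted p under 0.05, and of the 10 T-box genes Tbx3 was, with an increase of 12.3 kb (SE 1.22, limma adjusted p = 0.00229). With a block for the replicate number, limma also called Tbx18 (adjusted p = 0.0276), and 29.0% of genes were called longer. Without ESC WT replicate 2, the library with the lowest total called was the only ESC WT library left. The difference was then 7.4 kb for Tbx18 and 4.24 kb for Tbx1. Without ESC WT replicate 1 instead, it was 4.28 kb for Tbx18 and 1.07 kb for Tbx1. As a share of the library's covered length, limma called Tbx3 higher in EBs, as for 17.3% of genes, and Eomes (adjusted p = 0.0311) and Tbx4 (adjusted p = 0.0387) lower, as for 3.19%.

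The lines were compared within EBs to see where the T-box genes stood with no Jarid2, rescued Jarid2 and Jarid2 without the lysine. With 2 libraries against 2, an exact test cannot go below p = 0.33, so the values stand side by side. Both K116A libraries were above both WT libraries at all 10 genes, where this held for 26.7% of the 9793 genes. The reverse held at 0 of the 10, where it held for 5.82%. By the study's read numbers, both EB WT libraries were shallower than both of K116A. An effect of depth on covered length was not tested. Measured as a share of the length called in each library, K116A was above WT at 3 of the 10 (Tbx4, Tbx5 and Tbx15), near the 15.8% of all genes, and below WT at Tbx2, where 14.4% of all genes were.

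Both K116A libraries were above both KO libraries at 9 of the 10, the exception being Tbx2, where 11.6% of all genes showed this. The reverse held at 0 of the 10, where it held for 33.3%. Both WT libraries were above both KO libraries at 5 of the 10, namely T, Eomes, Tbx3, Tbx15 and Tbx20, where 3.8% of all genes showed this. The reverse held at 0 of the 10, where it held for 46.0%. Summed over the 10 genes, the covered length in EBs was 52.74 and 56.79 kb in KO, 92.27 and 94.39 kb in WT, and 141.26 and 141.88 kb in K116A, while the KO replicate 2 library had the longest total of all. As a share of the length called, WT was above KO at 8 of the 10, where 21.0% of all genes were, and K116A was above KO at 9, where 21.0% were. In ESC the lines overlapped in each pair at the 10 genes, and over all genes the share without overlap ran from 0.0715% to 3.05%.

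Single genes differed in how the lines were ordered. Tbx15 had 0.945 and 4.17 kb in KO, 11.2 and 15.3 kb in WT, and 28.4 and 27.6 kb in K116A. Tbx20 had 3.485 and 2.45 kb in KO, but 11.2 and 9.83 kb in WT, close to the 11.6 and 11.6 kb of K116A. For T the values were 4.71 and 4.62 kb in KO, 5.68 and 5.98 kb in WT, and 8.53 and 8.80 kb in K116A.

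Eomes followed the same order, with 1.73 and 1.38 kb in KO, 4.26 and 3.59 kb in WT, and 4.61 and 6.04 kb in K116A. In covered length Tbx1, Tbx2 and Tbx18 differed little, all 6 EB libraries lying between 13.3 and 16.3 kb, 13.4 and 17.2 kb, and 12.9 and 15.1 kb. By other measures these genes did differ, in opposite directions. By the highest score of a broad peak both KO libraries were above both WT libraries at Tbx1, Tbx2 and Tbx18, as at 45.8% of all genes. By share of the length called, WT was above KO at the same genes, as at 21.0% of all genes. Tbx21, outside the 10 genes, was above WT in KO, with 15.0 and 23.8 kb in KO, 7.195 and 7.73 kb in WT, and 7.39 and 9.16 kb in K116A.

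By the added limma model Tbx3 was the only one of the 10 genes called between lines in EBs. It was lower in KO than in WT, by -16.7 kb (SE 2.11, limma adjusted p = 0.0014), where 0.153% of genes were called lower in KO. It was higher in K116A than in KO, by 23.2 kb (SE 2.11, limma adjusted p = 0.000322), where 1.52% of genes were called higher in K116A. Both calls were made with each of the 12 libraries left out in turn and as a share of the library's covered length. K116A against WT gave 0 calls among the 10 genes by limma, 0.786% of genes being called higher in K116A. At an unadjusted limma p under 0.05 Tbx3 and Tbx4 were higher, where 784 of the 9793 genes had such a p in either direction. With the replicate block, limma called Tbx4 (7.85 kb, adjusted p = 0.0184) and Tbx15 (25.4 kb, adjusted p = 0.0182) higher in K116A than in KO as well, and 2.93% of genes were called higher. Without ESC WT replicate 1, limma called Tbx4 (adjusted p = 0.0364), Tbx15 (adjusted p = 0.0401) and Tbx20 (adjusted p = 0.045) for the same contrast, and without ESC WT replicate 2 these adjusted p-values were 0.0365, 0.0411 and 0.0457. The share of all genes called higher was 1.45% and 1.46% in these fits.

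The difference between the lines in their change from ESC to EB was tested as an interaction in the same limma model, and Tbx3 alone of the 10 genes was called. Its mean changed by -0.38 kb in KO, 14.22 kb in WT and 23.18 kb in K116A. KO against WT differed by -14.6 kb (limma adjusted p = 0.0295), where 0.0306% of genes were called lower in KO, and K116A against KO by 23.6 kb (limma adjusted p = 0.00487), where 0.429% of genes were called higher in K116A. The first of these calls was lost with 7 of the 12 libraries left out in turn and as a share of the library's covered length (limma adjusted p = 0.0786). K116A against WT was not called for Tbx3.

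**Figure D4:**
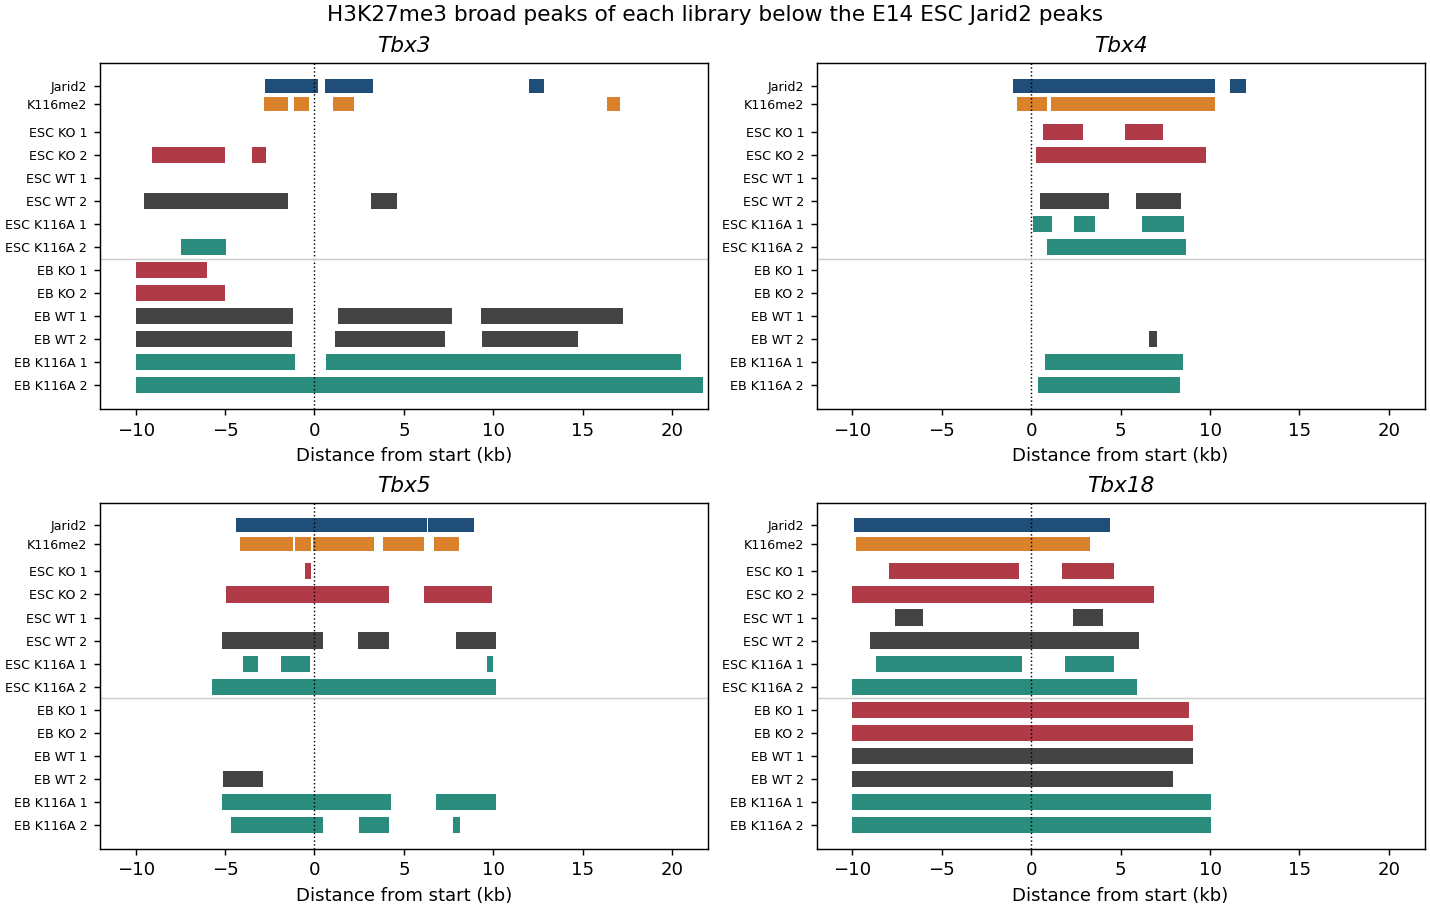
H3K27me3 broad peaks of the 12 libraries at Tbx3, Tbx4, Tbx5 and Tbx18 by distance from the start (kb), KO in red, WT in grey, K116A in green, cut at 10 kb upstream, below the Jarid2 (blue) and K116me2 (orange) peaks of E14 ESC. At Tbx3 the EB peaks of WT and K116A run through the gene while those of KO end at -6006 and -5010 bp from the start, and at Tbx4 and Tbx5 neither EB KO library has a peak.

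The position of the broad peaks shows what the value of 0 at Tbx3 in EB KO covers. In these libraries H3K27me3 was present upstream and ended at -6006 and -5010 bp from the start, just outside the window of 5 kb. In WT it ran to -1189 and -1242 bp from the start, resumed inside the gene and ended at 17274 and 14763 bp. In K116A replicate 1 it stopped at -1066 bp and resumed at 647 bp, and in K116A replicate 2 a single peak ran through the start to 21701 bp. With 10 kb on each side, a window chosen after these positions were seen, Tbx3 had 3.995 and 4.99 kb in KO, 23.2 and 20.3 kb in WT, and 28.8 and 31.7 kb in K116A, and the order of the lines was as before. Within the gene body alone it had 0 kb in both KO libraries, 11.1 and 10.8 kb in WT, and 13.4 and 14.1 kb in K116A.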

How the data were processed

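The authors mapped single reads to mm9 with Bowtie2 2.1.0, removed duplicates, and called peaks per sample against input, with MACS 1.4.2 for Jarid2 and MACS2 2.0.10 for H3K27me3. HOMER 3.17 is also named in the submitters' processing notes. The deposited lists give the position and the score of each peak, the score being as the peak caller wrote it and not normalized for depth. Fold enrichments, q-values and read counts were not used here. Starts were converted to 1-based positions, and every peak ended inside its NCBIM37 chromosome (20 of 20).

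The genes, the 7 further T-box genes, the 13 partners and targets and the 5 pluripotency genes were chosen with earlier results of these data known. All 10 genes were named, and the 5 genes nearest to Tbx15 by covered length. Peaks overlapping by at least 1 bp were merged. H3K27me3 was measured as covered length per gene with 5 kb on each side. Stages were compared by an exact two-sided permutation test within lines, with Benjamini-Hochberg adjustment, and by limma 3.58.1 (trended, robust) as an addition chosen after seeing the data. p-values measure the spread between these samples, which the study calls biological duplicates. Alternatives were other distances, scores, scalings, overlaps and left-out libraries.

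Replicate numbers come from the labels. The main tests carry no replicate block, and fits with it were alternatives. In limma the block is a single term for the replicate number, shared by all lines and stages. The labels do not state that ESC and EBs of the same number are paired. The replicate deviations of ESC and EBs correlated across 9793 genes within each line (0.32 for KO, 0.22 for WT and 0.44 for K116A). Over all 15 pairs of groups the correlations lay between 0.16 and 0.82, so they do not single out a pairing within lines. On shares of the library's covered length the 3 values were 0.49, 0.27 and 0.53. The functions and the limma fit were tested on simulated data. Python 3.11.15, numpy 2.4.6, pandas 2.3.3 and R 4.3.3 were used.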

Additional observations from a re-analysis of the deposited data

Results flagged for a closer look

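The change of H3K27me3 from ESC to EB differed between lines at Tbx3 by the test of the difference itself, the interaction term of the added limma model. KO changed by -14.6 kb relative to WT (limma adjusted p = 0.0295), and K116A by 23.6 kb relative to KO (limma adjusted p = 0.00487). In EBs both KO libraries were below all 4 libraries of WT and K116A, while in ESC the lines overlapped. The call of K116A against KO was made with each of the 12 libraries left out in turn, at differences from 22.7 to 24.4 kb and limma adjusted p from 0.00159 to 0.0376, and was lost on shares of the library's covered length with the replicate block (limma adjusted p = 0.0514). The call of KO against WT was lost on shares (limma adjusted p = 0.0786) and was kept in 5 of these 12 fits. It was lost without ESC KO replicate 2 (-14.2 kb, limma adjusted p = 0.0725), ESC WT replicate 1 (-12.1 kb, 0.0664), ESC K116A replicate 1 (-14.6 kb, 0.0674), ESC K116A replicate 2 (-14.6 kb, 0.072), EB KO replicate 2 (-14.6 kb, 0.103), EB WT replicate 1 (-13.2 kb, 0.112) and EB WT replicate 2 (-16.1 kb, 0.0724). The groups of 2 libraries are too small to test for a library that stands apart from its group.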

How the results depend on the processing

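The lists hold no replicate of Jarid2 or K116me2, and the length each H3K27me3 library called differed widely, which bears on covered length. The highest fold enrichment and a q-value of at most 0.001 were planned and not run, since the lists used here give position and score. Peaks within 50 kb numbered 35 for Jarid2, and the other distances and scores kept the counts of peaks, common regions and covered regions within 1.5 times.

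The exact permutation test called 0 of the 10 genes between stages under each of its alternatives, and 0 of all genes. With the replicate block its smallest possible p was 0.0312 and 0 of the 10 were called. With replicate 2 libraries only, 8 arrangements allowed no p below 0.25, so no call was possible. With so few arrangements, these counts of 0 cannot show that the stages are alike. Limma, chosen after seeing the data, called 1 without and 2 with the replicate block, and 3 and 3 on shares of the library's covered length. The direction of uncalled stage differences turned in several settings; the cause was not tested. On shares (bases per Mb of the library's covered length) it turned for T (-68.9), Tbx1 (-511), Tbx2 (-894), Tbx18 (-112) and Tbx20 (-240). With replicate 2 libraries only it turned for T (-0.284 kb), Tbx2 (-1.85 kb) and Tbx20 (-2.7 kb). Tbx15, near 0, turned to 0.366 kb for the gene body, to 27.6 for the highest score, and with 1 library left out it lay between -3.72 and 3.6 kb. With 1 library left out, Tbx2 lay between -0.833 and 1.74 kb and Tbx20 between -0.988 and 1.98 kb, and both were below 0 without ESC WT replicate 1 or ESC KO replicate 1.

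Within EBs, K116A was above WT at 10 of the 10 genes by covered length and at 3 by share, and WT above KO at 5 by length and at 8 by share. KO was above WT at 0 by length and by share, and at 3 by the highest score (45.8% of all genes). K116A was above WT at 9 by the highest score (31.9% of all genes) and at 8 in the gene body (18.0%). With peaks of a score of at least 50 only, it was above WT at 7 (20.3%), Eomes, Tbx4 and Tbx5 being the exceptions. Limma calls of K116A against KO numbered 1, 3 with the replicate block, and 1 to 4 with 1 library left out, 4 being reached without ESC WT replicate 1 or 2. The replicate block changed no other call of limma between lines or stages on covered length, and Tbx3's call of K116A against KO in the change from ESC to EB was lost with the block on shares (816, limma adjusted p = 0.0514).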
